A study of Mus musculus with 26 samples.

Results

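Open chromatin was compared between a line of mouse formative stem cells, FS1, and a line of mouse epiblast stem cells, EpiSC (AFX)2, called AFX2 here, with the peak lists of all libraries brought to the same length. Regions were taken from the 23000 autosomal peaks of highest −log10 p in each of 3 FS1 and 3 AFX2 lists, and overlapping peaks were merged into 41930 union regions. A library held a region if a peak of its shortened list overlapped it by at least 1 bp. A peak that is missing can mean fewer open cells or less open DNA in each cell, which cannot be told apart in bulk libraries. Regions held by all 3 FS1 libraries and by no AFX2 library numbered 580 (1.38% of the union), and are called FS1-only. Regions held by all 3 AFX2 libraries and by no FS1 library numbered 850 (2.03% of the union), and are called AFX2-only. These shares follow from the way the regions were picked, so nothing is read from them, and no test was made of any difference.

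The series profiled open chromatin in 26 libraries of mouse pluripotent cells by ATAC-seq, in which the transposase Tn5 inserts sequencing adapters into accessible DNA. Each library began with 50000 cells, per the labels. The FS1 libraries came from formative stem cells at passage 21, grown in a medium named A3XR, and the AFX2 libraries from EpiSCs at passage 16, grown in a medium named AFX. Libraries of a line are only numbered in the labels, which do not state whether the cultures were separate, so their spread may be technical. Each side is 1 line, and the labels give neither a strain nor a genotype for either line. Cell state, medium, passage and the origin of the line therefore cannot be told apart in this comparison. Set beside the members were lists from FS2 (passage 29, A3XR), EpiSC (AF) (passage 22, in a medium named AF), EpiSC (AFX)1 (passage 14, AFX) and ES cells (passage 16, in 2iL), with 3 libraries each. A further set of libraries labelled Rd2 held 2 of ES cells at passage 33, 4 of epiblast-like cells (EpiLC) after 2 days of induction and a sort for low GFP, and 2 of EpiSC grown in AFX at passage 16.

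Pluripotency in the mouse embryo runs through several stages. Naive cells of the blastocyst carry factors such as Esrrb and Klf4, formative cells of the early post-implantation epiblast have lost most of these and are held to be competent for all lineages including germ cells, and primed cells of the later epiblast begin to express genes of the germ layers. EpiSCs are the cultured form of the primed stage and depend on activin and FGF signalling. A site that is open in one stage and closed in another often lies far from gene starts, because promoters of most active genes stay open in all stages while enhancers change.

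The promoters shown here are 3 examples from each side, at which a side-only region overlapped the gene start. Those of the FS1 side are meiosis genes, and those of the AFX2 side have some of the stronger regions at starts. They were picked after their values were seen and not by a rule, from 68 promoter genes on the FS1 side and 64 on the AFX2 side. They do not describe a side as a whole. Of listed germ cell genes, Sycp3 had an FS1-only region, and Dazl and Kit were nearest to AFX2-only ones. Each line is the run of 250 bases before a gene start, 5′ to 3′ on the strand of the gene, from RefSeq on GRCm38.p6, in lower case with CG dinucleotides in capitals. Sycp3 and Syce3 encode parts of the synaptonemal complex, the protein scaffold that joins paired chromosomes in meiosis, and Iho1 is needed to form the DNA breaks from which meiotic recombination starts. The windows lie at chr10:88459337-88459586 on the plus strand, and at chr15:89410264-89410513 and chr9:108431827-108432076 on the minus strand.
Sycp3: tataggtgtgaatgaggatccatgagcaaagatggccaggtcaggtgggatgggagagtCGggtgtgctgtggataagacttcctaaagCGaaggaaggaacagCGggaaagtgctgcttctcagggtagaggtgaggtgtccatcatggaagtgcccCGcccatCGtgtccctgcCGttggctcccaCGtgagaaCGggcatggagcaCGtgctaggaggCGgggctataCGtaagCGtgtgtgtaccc
Syce3: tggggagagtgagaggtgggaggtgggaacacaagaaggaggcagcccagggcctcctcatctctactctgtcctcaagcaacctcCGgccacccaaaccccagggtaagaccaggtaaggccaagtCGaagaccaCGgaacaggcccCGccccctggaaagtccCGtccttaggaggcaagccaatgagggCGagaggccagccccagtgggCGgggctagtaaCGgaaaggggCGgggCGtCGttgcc
Iho1: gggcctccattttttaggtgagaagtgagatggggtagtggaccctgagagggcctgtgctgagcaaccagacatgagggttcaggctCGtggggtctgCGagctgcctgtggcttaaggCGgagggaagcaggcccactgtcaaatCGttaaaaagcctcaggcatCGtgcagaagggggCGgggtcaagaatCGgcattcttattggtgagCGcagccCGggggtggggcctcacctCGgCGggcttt

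For the AFX2-only side, Col11a1 encodes a chain of type XI collagen, Slco4c1 a transporter of organic anions, and Crb3 a small membrane protein that marks the apical side of epithelial cells. Their windows lie at chr3:114030290-114030539 and chr17:57061981-57062230 on the plus strand, and at chr1:96872172-96872421 on the minus strand.
Col11a1: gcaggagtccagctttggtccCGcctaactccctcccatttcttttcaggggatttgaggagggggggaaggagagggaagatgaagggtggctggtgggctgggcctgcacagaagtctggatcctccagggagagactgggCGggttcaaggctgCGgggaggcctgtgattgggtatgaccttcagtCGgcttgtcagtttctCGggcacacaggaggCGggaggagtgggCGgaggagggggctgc
Slco4c1: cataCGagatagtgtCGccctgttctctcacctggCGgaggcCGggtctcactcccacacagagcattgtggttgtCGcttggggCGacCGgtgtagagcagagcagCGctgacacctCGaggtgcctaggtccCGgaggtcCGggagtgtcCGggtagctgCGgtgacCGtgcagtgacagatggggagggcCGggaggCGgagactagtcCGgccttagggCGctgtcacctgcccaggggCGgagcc
Crb3: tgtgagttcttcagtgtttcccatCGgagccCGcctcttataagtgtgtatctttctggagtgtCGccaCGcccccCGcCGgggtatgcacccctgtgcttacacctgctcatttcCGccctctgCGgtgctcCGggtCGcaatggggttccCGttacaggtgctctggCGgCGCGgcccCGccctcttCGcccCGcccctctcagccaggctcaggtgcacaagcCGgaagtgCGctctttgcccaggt

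These 6 runs held 12 CG dinucleotides at Sycp3, 11 at Syce3, 11 at Iho1, 7 at Col11a1, 19 at Slco4c1 and 19 at Crb3. Their GC content lay between 57.2% at Sycp3 and 66.4% at Slco4c1. The side-only region covered all 250 bases at Iho1 and at Col11a1, and between 154 and 234 bases at the other four.

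The 6 lists were of like length before they were shortened. FS1 lists held 23297 to 30399 autosomal peaks and AFX2 lists 24887 to 28764, so the 23000 peaks used were between 75.7% and 98.7% of an autosomal list. The lowest −log10 p used lay between 3.80 and 5.02. Defining genes of the labelled cell types were read as genes with a peak within 1 kb of either end. Of 10 core pluripotency genes, 8 or 9 had one in each list, and of 13 formative genes the same number, 11, had one in each. Of 12 naive genes, 7 or 8 had a peak in each list, while Zfp42, Nr5a2, Prdm14 and Dppa3 had none in any of the 6. Of 17 primed genes, 4 to 10 had a peak in FS1 lists and 5 to 7 in AFX2 lists, so this count did not set the lines apart. Of 13 markers of extra-embryonic trophoblast and endoderm, 2 to 4 had a peak in each list.

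**Figure D1:**
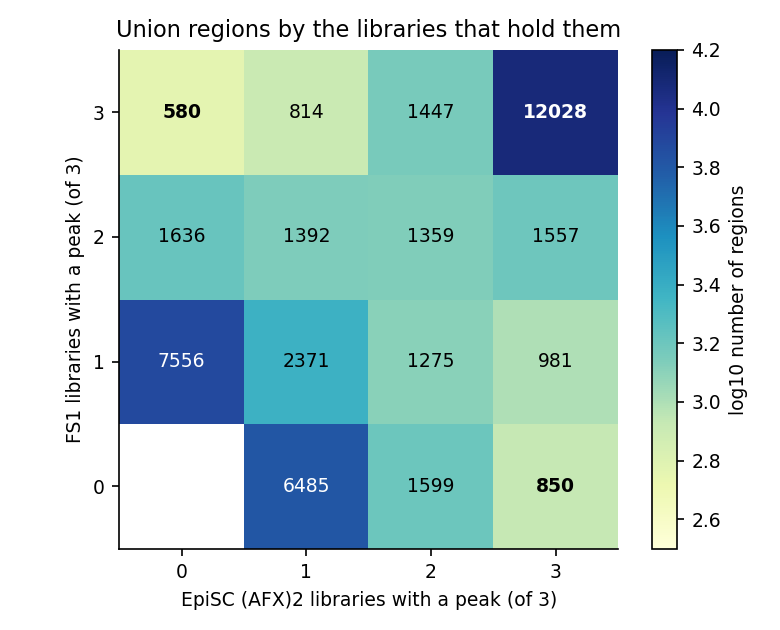
Number of union regions by how many of the 3 FS1 libraries (vertical axis) and of the 3 AFX2 libraries (horizontal axis) held them, coloured by log10 of the number. The corner held by all 6 libraries has 12028 regions, and the corners held by a whole side alone have 580 (FS1) and 850 (AFX2).

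Most of what the lines held, they held together or in single libraries. All 6 libraries held 12028 regions, 28.7% of the union, and 1 library alone held 7556 regions on the FS1 side and 6485 on the AFX2 side. A region that was absent from the shortened lists of the other side was usually absent from the full ones too. The shortening had kept 75.7% to 98.7% of each list, so this follows in part from the cut. Of the FS1-only regions, 435 (75%) had no peak in any AFX2 list as deposited, 121 had a peak in 1 list, 20 in 2 lists and 4 in all 3. Of the AFX2-only regions, 661 (77.8%) had no peak in any FS1 list as deposited, 174 had one in 1 list, 15 in 2 lists and 0 in all 3. The peaks that the shortening removed were mainly in the longest list of each side, with 107 FS1-only regions reached by AFX2 library 2 and 154 AFX2-only regions reached by FS1 library 3.

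Side-only regions were weaker peaks than shared ones. The strength of a peak is given as its percentile rank by −log10 p within the 23000 peaks of its own list, where 100 is the strongest. The median of the mean rank over 3 libraries was 38.1 for FS1-only and 36.0 for AFX2-only regions, against 68.6 over 6 libraries for the regions held by all. By library, the median rank of the FS1-only regions was 41.0, 39.5 and 36.2 in FS1 libraries 1 to 3. That of the AFX2-only regions was 35.7, 40.5 and 34.4 in AFX2 libraries 1 to 3. A mean rank above 75 was reached by 28 FS1-only and 17 AFX2-only regions, and most of the regions given in full come from these.

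**Figure D2:**
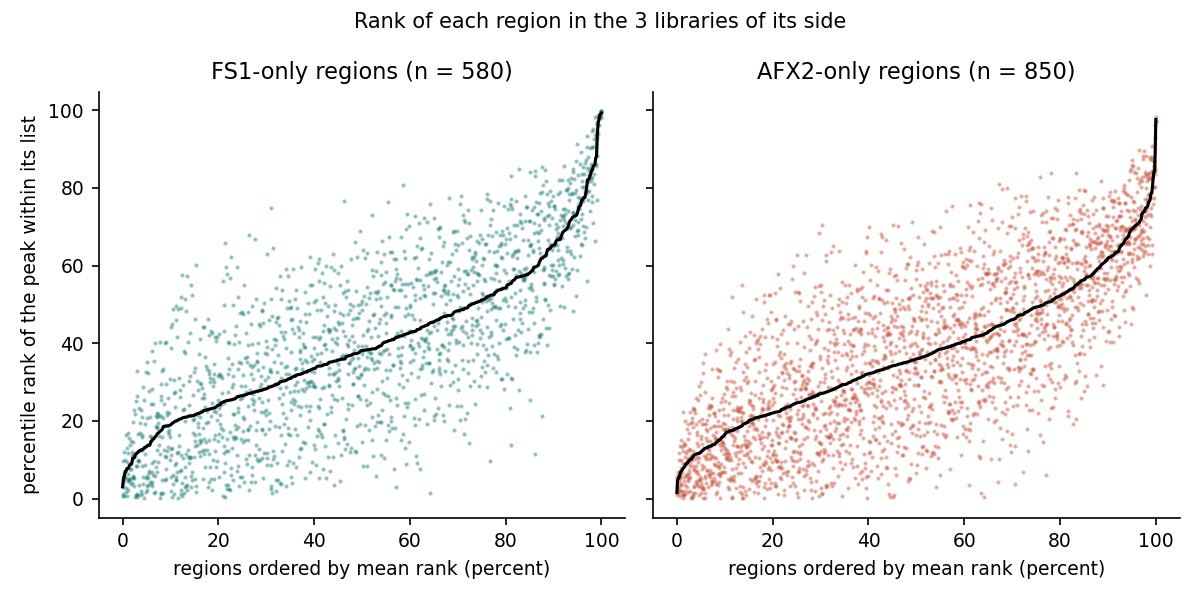
Percentile rank of each FS1-only region (left) and AFX2-only region (right) in each of the 3 libraries of its side (points), with the mean of the 3 as a black line, regions ordered by that mean. Medians of the mean are 38.1 and 36.0, and the lines turn up steeply among the last few percent of regions.

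The strongest FS1-only regions lay inside or between genes, and none of the first 10 lay within 1 kb of a gene start. The region of highest rank, chr14:122568880-122569163, lay within Pcca, which encodes a subunit of the mitochondrial propionyl-CoA carboxylase, and ranked 99.7, 99.7 and 98.4 in FS1 libraries 1 to 3. Next was chr11:31922601-31922880 within Cpeb4, a protein that binds the tails of messenger RNAs and controls their translation, with ranks of 99.7, 99.4 and 98.0. Neither had a peak in any AFX2 list as deposited, so a site among the strongest few percent of FS1 peaks had no called counterpart in AFX2. Kazn, which encodes a protein of cell junctions, was the gene nearest to chr4:142626871-142627226, at 387 kb, with ranks of 98.4, 99.1 and 99.1. Usp46, a ubiquitin protease, was nearest to chr5:74126508-74126830, at 58.1 kb, with ranks of 96.4, 97.1 and 88.3. Nxpe4 held chr9:48217528-48217857 with ranks of 85.5, 91.4 and 86.1. Ankrd44 was nearest to chr1:54619025-54619294, at 26.0 kb, where the rank in FS1 library 3, 66.3, was well under the 93.7 and 98.1 of the others.

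The strongest AFX2-only region covered a gene start. It lay at chr3:114030117-114030657 over the start of Col11a1, with ranks of 97.2, 98.3 and 97.3 in AFX2 libraries 1 to 3, and no FS1 list as deposited had a peak there. Nfia, a transcription factor of neural and glial development, held chr4:97629990-97630345 with ranks of 80.3, 92.9 and 96.1. Ttc7b held chr12:100458676-100458888 with ranks of 85.6, 86.9 and 80.2, and the start of Slco4c1 lay under chr1:96871862-96872405 with ranks of 77.5, 85.7 and 87.0. Nrip1, a corepressor of nuclear receptors, was nearest to chr16:76539742-76540118, at 166 kb, with ranks of 84.5, 84.7 and 76.0. Cntn4, a neural adhesion protein, held chr6:105677399-105677930 with ranks of 74.8, 82.3 and 77.3. None of these 6 had a peak in a deposited FS1 list, whereas the regions within Zfp600 (chr4:146161158-146161441, mean rank 84.3) and near Med30 (chr15:52804155-52804637, mean rank 78.8) each had one in 1 list. Zfp600 is one of a cluster of very similar zinc finger genes, where reads can be placed on the wrong copy, and its region is uncertain for that reason. The list of the 10 strongest was completed by Gm39469, a gene model without a named product (mean rank 80.4), and by a region 1.45 Mb from Acvr2a, described with the activin pathway.

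Side-only regions lay at gene starts less often than shared regions did. Within 1 kb of the start of a protein-coding gene were 99 FS1-only regions (17.1%) and 94 AFX2-only regions (11.1%), against 66.0% of the regions held by all 6 libraries and 30.2% of the union. Of the 2667 regions held by 3 libraries drawn from both sides, and thus by as many libraries, 21.3% lay near a start. The order of the sides was not stable, because among peaks with a −log10 q from 5 upward the shares were 26.1% and 36.7%, and without FS1 replicate 2 they were 13.6% and 15.6%. Where strand was not given, for about 1 gene in 5, either end was taken as the start.

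The 2 sides differed in the size of the genes around them. Of the 270 FS1-only regions that lay in a gene, 10 (3.70%) lay in a gene longer than 500 kb, and of the 397 AFX2-only regions in a gene, 72 (18.1%) did. The same share was 6.43% for the regions held by 3 libraries from both sides, 2.28% for those held by all 6 and 5.66% for the union. The median length of the host gene was 49.5 kb for FS1-only and 110 kb for AFX2-only regions. AFX2-only regions also lay far from genes more often, with 19.6% more than 100 kb away against 12.1% of FS1-only regions and 9.90% of the regions held by 3 libraries from both sides. AFX2-only regions were wider, with a median of 353 bp against 300.5 bp, and the part of width in these shares was not tested. The share in long genes was higher on the AFX2 side under each of the 14 alternatives tried, but among peaks with a −log10 q from 5 upward it was 4.91% against 2.53%.

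**Figure D3:**
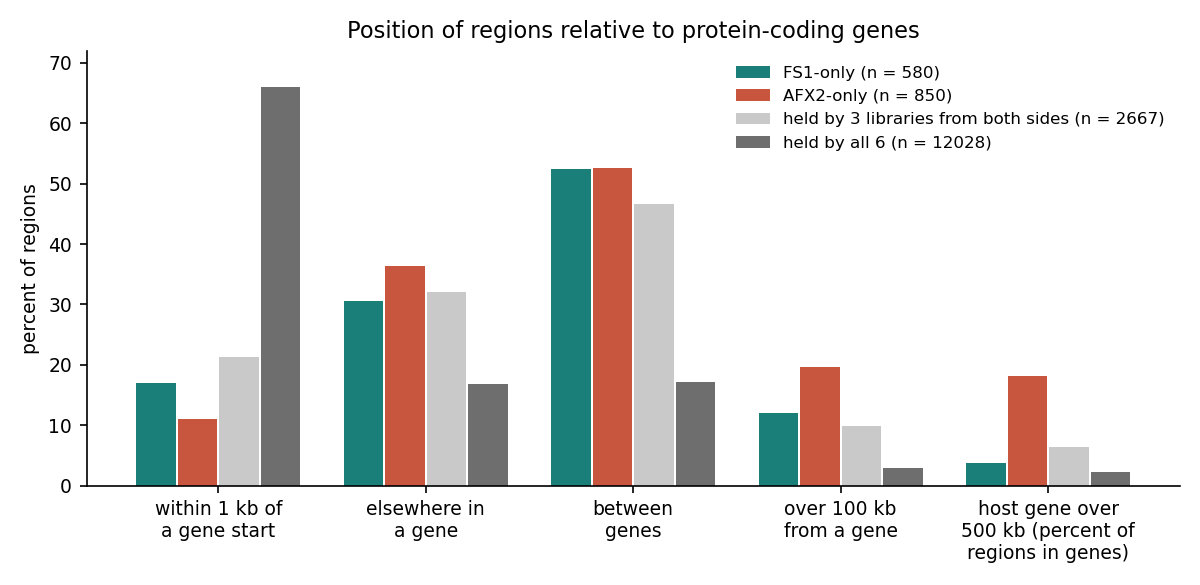
Percent of regions in each position class for FS1-only, AFX2-only, regions held by 3 libraries from both sides, and regions held by all 6 libraries; the last class is a percent of the regions that lie in genes. AFX2-only bars stand highest for distance over 100 kb (19.6%) and for host genes over 500 kb (18.1%).

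Genes with several AFX2-only regions were mostly long. A long gene, or one with few neighbours, is nearest to more regions of any kind. No such count was made for shared regions, so these genes add nothing to the shares above. There were 12 genes nearest to 3 or more AFX2-only regions, and those named here are from the first 8 by count and rank. Cntnap5a, a neurexin-related protein whose gene spans 903 kb, was nearest to 4 regions with mean ranks of 20.96 to 52.9, of which 1 lay within the gene and the furthest 1.40 Mb away. Adgrl3, an adhesion receptor of synapses (gene of 809 kb), and Cdh4, a cadherin of the retina and brain (457 kb), had 3 each. Car10 (505 kb), Gse1 (353 kb), Dok5 (148 kb) and Kif2b (2.27 kb, in a stretch with few genes) had 3 each as well. All 3 regions of Gse1 and of Cdh4 lay within the gene, while none did at Kif2b, whose regions were 368 to 634 kb away. An FS1 list as deposited had a peak at 3 of the 4 AFX2-only regions nearest to Cntnap5a, and at 1 of 3 each for Gse1, Car10 and Dok5.

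On the FS1 side 4 genes were nearest to 3 or more regions, and 3 of these were neighbours. Nphp4 was nearest to 8 FS1-only regions, Ajap1 to 5 and A430005L14Rik to 4, all in 1 stretch of chromosome 4. Fam169b on chromosome 7 had 3 regions, all within the gene, with mean ranks of 28.1 to 34.0 and 1 of them, chr7:68275808-68276573, over its start.

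The chromosome 4 stretch ran from the end of Nphp4, a gene of the primary cilium, to A430005L14Rik, from chr4:152563185-153957236, a length of 1.39 Mb with Ajap1, which encodes a membrane protein of adherens junctions, inside it. It was picked after the regions had been seen. The stretch held 34 union regions, of which 17 were FS1-only, 0 were AFX2-only and 1 was held by all 6 libraries. These 17 were 2.93% of all FS1-only regions, and 4 of the 10 strongest FS1-only regions were among them. Neighbouring FS1-only regions there were 3.81 to 248 kb apart (median 69.1 kb), so they are separate peaks, and their mean ranks ran from 35.2 to 97.6 (median 64.5).

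The strongest of them was chr4:153868998-153869503, 87.7 kb from A430005L14Rik, with ranks of 98.8, 97.9 and 96.2. The strongest near Ajap1 was chr4:153666746-153667096, at 183 kb, with ranks of 98.4, 93.8 and 98.3, followed by chr4:153236719-153237026 with 92.9, 77.0 and 94.4. The strongest near Nphp4 was chr4:152886797-152887139, at 324 kb, with ranks of 85.2, 74.1 and 90.2. One region, chr4:153417468-153418294, lay within Ajap1 and had a mean rank of 76.9. At the sites named here each FS1 library ranked the peak above 70. FS1 library 2 was the lowest at most of them, most clearly at chr4:153236719-153237026, whereas FS1 library 1 was low at some of the weaker ones. No AFX2 list as deposited had a peak at any of the 17.

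Seen over all lists as deposited, the stretch separated more than these 2 lines. FS1 lists had 32, 26 and 31 peaks in it, and AFX2 lists 1, 2 and 1. FS2 lists had 9, 6 and 12, ES lists 3, 3 and 4, and Rd2 EpiLC lists 2, 10, 6 and 16. EpiSC (AF) lists had 1, 3 and 2 peaks, EpiSC (AFX)1 lists had 1 each, and both Rd2 AFX lists had 0. The lists of all EpiSC lines thus had at most 3 peaks there, and FS2 lists, which are shorter than those of the first-set EpiSC lines, had at least 6. On both sides of the stretch FS1 and AFX2 were alike, with 30.3 to 34.3 peaks per 10000 in FS1 and 35.8 to 37.8 in AFX2. Other groups were not all alike there, with 11.5 to 14.2 in ES and 19.2 to 25.9 in EpiLC. Of the peaks in the stretch and its flanks together, 24.5% to 29.1% lay in the stretch in FS1. In ES 16.7% to 25% did, and in AFX2 1.04% to 1.90%. Of the 17 FS1-only regions, 10 had a peak in some FS2 library, 11 in some EpiLC library, 4 in some ES library, 1 in an EpiSC (AF) library and 0 in EpiSC (AFX)1 or Rd2 AFX libraries. Of all FS1-only regions, 44.5% had one in FS2, 40.7% in EpiLC, 15% in ES and 45% in EpiSC (AF). The shares were 43.3% for EpiSC (AFX)1 and 10.2% for Rd2 AFX. Over the union these 6 shares were 42.0%, 52.3%, 26.9%, 57.2%, 60.3% and 30.4%. ATAC-seq peaks alone cannot tell closed chromatin from DNA missing in a line, and the copy number of this stretch was not tested.

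**Figure D4:**
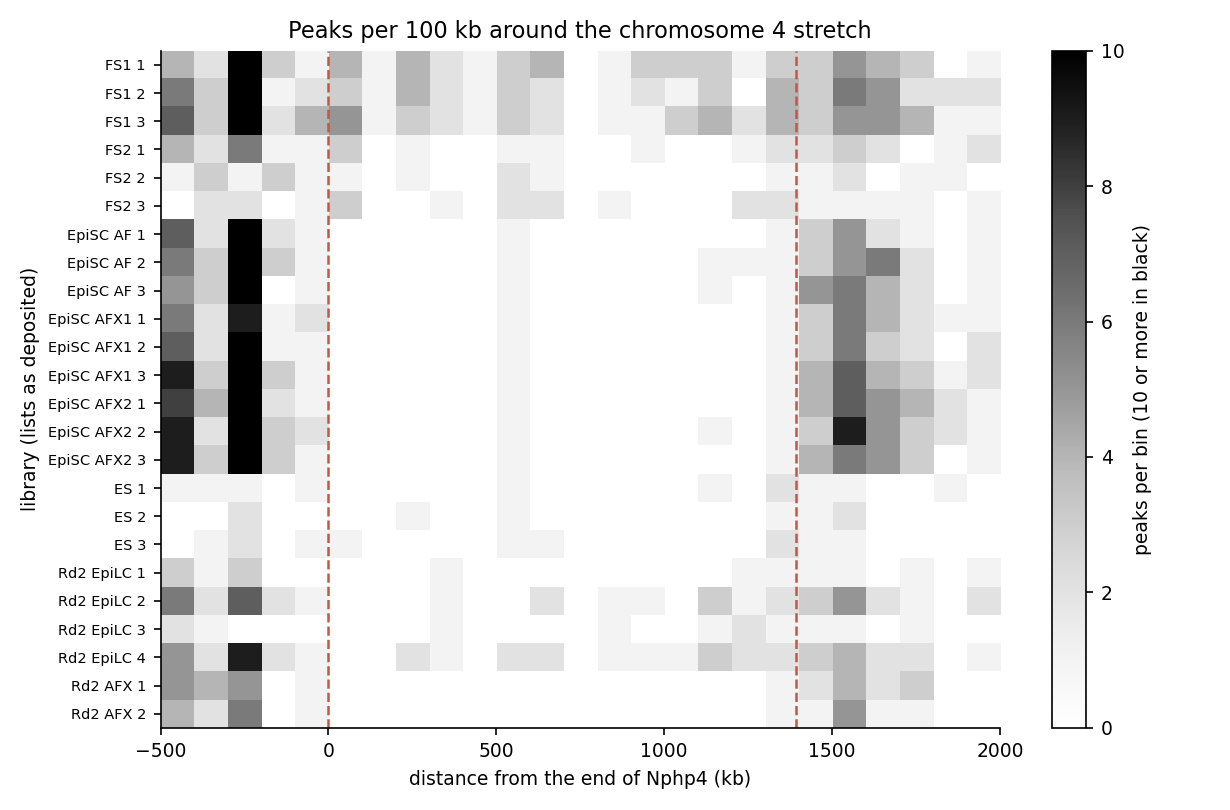
Peaks per 100 kb bin in the lists as deposited, by distance from the end of Nphp4 (horizontal axis), for the first-set libraries and the Rd2 EpiLC and AFX libraries (rows); dashed lines mark the ends of the 1.39 Mb stretch, and the bin at the right line reaches past it. FS1 rows have 26 to 32 peaks between the lines, AFX2 rows 1 or 2, while bins outside the lines are filled in both.

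The number of side-only regions varied between chromosomes. Per 1000 union regions there were 13.8 FS1-only and 20.3 AFX2-only regions over all autosomes. Chromosome 6 had 9.82 FS1-only and 27.8 AFX2-only regions per 1000, and chromosome 15 had 19.8 and 11.9, so the order of the sides turned there. It turned on chromosome 19 as well (14.3 and 8.57), which had only 15 FS1-only and 9 AFX2-only regions, and the sides were close on chromosome 11 (14.7 and 14.4). No error can be given for these counts, since neighbouring regions are not independent.

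Peaks of lines that had no part in choosing the regions were then read at them. Their lists were used as deposited, so that the share of FS1-only and of AFX2-only regions can be set beside each other within a library, but not between libraries of different length. FS2, the other formative line, had peaks at 27.4%, 21.6% and 21.7% of the FS1-only regions in its libraries 1 to 3. At the AFX2-only regions it had peaks at 4.94%, 4.59% and 3.76%, so the FS1-only share was 4.70 to 5.77 times the AFX2-only share. The difference, 19.1 ± 2.94 percentage points (mean ± SD, n = 3 libraries), had the same sign in all 3. When FS1 library 1, 2 or 3 was left out in choosing the regions, it fell to 11.7, 8.94 and 12.1 points. Without AFX2 library 1, 2 or 3 it was 22.7, 18.9 and 23.2 points. Each of these runs asked for 1 library fewer on that side. For scale, FS2 libraries 1 to 3 had peaks at 16.8%, 14.4% and 13.7% of the regions held by 3 libraries from both sides. Over all union regions their shares were 30.7%, 25.8% and 28.1%, higher than at the FS1-only regions.

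In EpiSC lines the order was the other way. EpiSC (AF) libraries 1 to 3 had peaks at 12.9%, 25% and 32.6% of the FS1-only regions, and at 23.6%, 42.0% and 50.9% of the AFX2-only regions. The difference was −15.4 ± 4.08 percentage points (SD, n = 3). It was not stable, at −0.0809, −5.53 and −2.13 points without AFX2 library 1, 2 or 3, and −25.2 without FS1 library 2. At the regions held by 3 libraries from both sides, the EpiSC (AF) shares were 16.9%, 35.2% and 40.6%, between those of the 2 kinds of side-only region. Over the union they were 34.2%, 44.9% and 48.1%. EpiSC (AFX)1, labelled with the same medium as AFX2, had peaks at 18.8%, 24.3% and 36.9% of the FS1-only regions and at 21.4%, 29.1% and 48.8% of the AFX2-only regions. That difference was smaller, −6.43 ± 4.88 points (SD, n = 3). It turned to between 1.32 and 7.73 points when any 1 AFX2 library was left out, which also asks for 1 library fewer on that side. Its direction thus held only with all 3 AFX2 libraries in the rule. At the regions held by 3 libraries from both sides, the EpiSC (AFX)1 shares were 26.2%, 36.8% and 53.8%. Over the union they were 38.1%, 44.8% and 53.8%. Both were higher than at either kind of side-only region, so EpiSC (AFX)1 had no excess of peaks at AFX2-only regions. The 4 EpiLC libraries gave −10.9 ± 8.16 points, with the AFX2-only share higher in each, and the 2 Rd2 AFX libraries gave −8.82 and −4.99. ES libraries differed by −1.13 to 1.86 points, with no common sign.

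**Figure D5:**
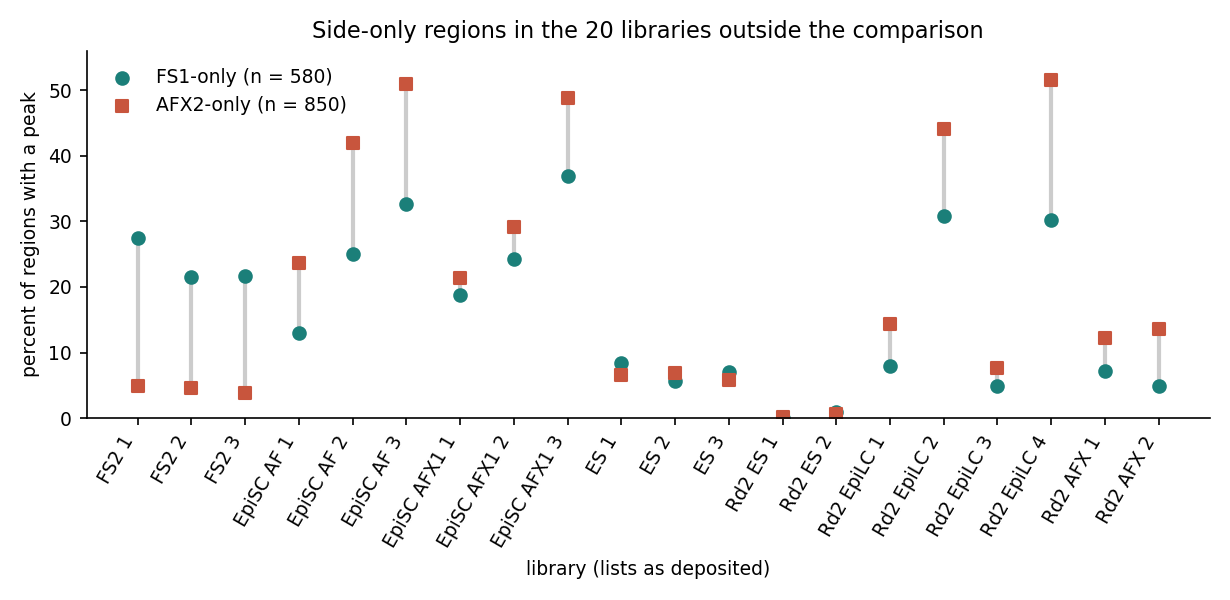
Percent of the 580 FS1-only regions (circles) and of the 850 AFX2-only regions (squares) that have a peak in each of the 20 libraries outside the comparison, lists as deposited. Circles stand above squares in all 3 FS2 libraries and below them in all EpiSC and EpiLC libraries.

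Asking for a peak in every library of a line lowered all shares. All 3 FS2 libraries had a peak at 43 FS1-only regions (7.41%) and at 7 AFX2-only regions (0.824%). All 3 EpiSC (AF) libraries had one at 39 FS1-only (6.72%) and 112 AFX2-only regions (13.2%). For EpiSC (AFX)1 the numbers were 64 (11.0%) and 83 (9.76%), which is the opposite order to that of the single libraries, and for ES cells 12 (2.07%) and 16 (1.88%). For scale, 15.9% of all union regions had a peak in every FS2 library, 28.9% in every EpiSC (AF) library and 31.7% in every EpiSC (AFX)1 library, more than of either kind of side-only region. Among the regions held by 3 libraries from both sides, the shares were 2.14%, 6.56% and 13.6%. No library outside the comparison had a peak at 107 FS1-only (18.4%) and 77 AFX2-only regions (9.06%). The same share was not taken over the union. Outside lists were 11632 to 13929 autosomal peaks long for FS2, and 15148 to 26811 for the first-set EpiSC lines. The 2 sides thus had unlike chances of being met, and these shares do not rank them.

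A small number of regions followed the label of the cell type through the first-set FS and EpiSC lines. The FS1 and AFX2 part of this pattern was set by the way the regions were picked. At 10 FS1-only regions (1.72%) every FS1 and FS2 list had a peak and no list of the 3 first-set EpiSC lines had one. They were nearest to A430005L14Rik, Tex44, Trub1, Acsl6, Nphp4, Adgrb2, Thap1, Syce3, Iho1 and St6galnac2, with mean ranks from 43.6 to 97.6. The pair at Syce3 (chr15:89410156-89410454, mean rank 51.9) and Iho1 (chr9:108431598-108432302, mean rank 46.9) covered the starts of meiosis genes, and the pair near A430005L14Rik and Nphp4 lay in the chromosome 4 stretch. Of the 10, 6 had a peak in some EpiLC library, 3 in some ES library and 0 in an Rd2 AFX library. Of all FS1-only regions 40.7%, 15% and 10.2% had one, and of the union 52.3%, 26.9% and 30.4%.

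The mirror pattern, a peak in every list of the 3 first-set EpiSC lines and in no FS list, was met by 10 AFX2-only regions (1.18%). Col11a1, Nrip1, Cntn4, Foxn3, Rims1, S1pr1, Got2, Ccnh and Armc1 were among the nearest genes, with mean ranks over the 10 regions from 25.5 to 97.6. Of these 10, 9 had a peak in some EpiLC library, 3 in some ES library and 4 in some Rd2 AFX library. Of all AFX2-only regions 60.1%, 12.2% and 20.2% had one, and of the union 52.3%, 26.9% and 30.4%. The Col11a1 region had a peak in 3 of 3 ES, 4 of 4 EpiLC and 2 of 2 Rd2 AFX libraries, so there it was the FS lists, 0 of 6, that stood alone.

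Some of the strongest FS1-only regions set AFX2 apart and not FS1. At 5 regions every first-set list of FS1, FS2, ES, EpiSC (AF) and EpiSC (AFX)1, 15 in all, had a peak and none of the 3 AFX2 lists had one. They lay in Pcca, Cpeb4, Nxpe4 and Esr1 and 247 kb from Zfp608, with mean ranks from 42.3 to 99.3. The first and second strongest FS1-only regions are among these 5, and no Rd2 library of any group had a peak at them. No AFX2-only region had the mirror pattern, a peak in every first-set list except those of FS1. Peaks in FS1 lists alone, of all 26, were found at 93 FS1-only regions (16.03%), with Ankrd44 the strongest, and peaks in AFX2 lists alone at 61 AFX2-only regions (7.18%). These shares do not rank the sides either, because the other FS lists were fewer and shorter than the other first-set EpiSC lists.

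Regions at gene starts point to a gene more directly than those between genes. The 8 strongest FS1-only regions at starts were those of Sycp3, Plekhg4, Sf3a3, Got1l1, Dnajc24, Jph2, Klhdc7a and Myef2. At Sycp3 the region was chr10:88459433-88460819, 1387 bp wide, with ranks of 76.8, 58.0 and 78.4, and 2 of 3 FS2, 3 of 4 EpiLC, 1 of 3 EpiSC (AF) and 0 of 3 EpiSC (AFX)1 lists had a peak there. Plekhg4 (chr8:105374610-105374879) ranked 49.3, 71.8 and 85.7, and Sf3a3, a splicing factor, (chr4:124714562-124715162) 42.3, 69.2 and 74.1. Ranks at FS1 starts were middling and uneven between libraries, and 1 AFX2 list as deposited had a peak at Sf3a3 and at Klhdc7a. Another germ cell gene, Tex19.1, named after its value was seen, had an FS1-only region over its start at chr11:121145889-121146155 with a mean rank of 56.2 and a peak in 2 of 3 FS2 and in no first-set EpiSC list.

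The 8 strongest AFX2-only regions at starts were those of Col11a1, Slco4c1, 2010315B03Rik, Tmem139, Mapk13, Sphkap, Crb3 and Ccdc60. Crb3 (chr17:57062026-57062308) ranked 77.5, 44.9 and 84.8 in AFX2 libraries 1 to 3, and 3 of 3 EpiSC (AF) but 0 of 3 EpiSC (AFX)1 lists had a peak there. Mapk13, a stress-activated kinase, (chr17:28769096-28769969) ranked 89.8, 67.6 and 55.4 with a peak in every EpiSC list of the first set and in 1 FS1 list as deposited. Sphkap, an anchoring protein for protein kinase A, (chr1:83408004-83408412) ranked 76.5, 69.2 and 63.0. Slco4c1 had a peak in 0 of 6 FS lists and in 3 of 3 ES, 3 of 3 EpiSC (AFX)1 and 2 of 2 Rd2 AFX lists.

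RefSeq promoter windows, 250 bases before to 50 after a start, were overlapped by 62 FS1-only regions (74 windows of 68 genes) and by 62 AFX2-only regions (71 windows of 64 genes). The median number of CG dinucleotides in a window was 18 on the FS1 side and 14 on the AFX2 side, against 24 in the 7958 windows under regions held by all 6 and 14 in all 20062 windows. More than 10 CG dinucleotides were found in 73.0% of FS1-only, 60.6% of AFX2-only, 91.4% of all-6 and 55.9% of all windows. Side-only promoters were thus poorer in CG dinucleotides than the shared ones on both sides, and on the AFX2 side nearer to the average promoter.

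Of 23 motifs searched as letters on both strands, the 2 with the widest gap between the sides are given, so the gaps follow in part from that choice. The letters CCGGAAGT, typical of ETS factors, were in 13 FS1-only windows (17.6%) and 4 AFX2-only windows (5.63%), against 8.49% of all-6 and 5.28% of all windows. The 13 windows lie under 9 of 62 FS1-only regions, because neighbouring genes such as Krit1 and Ankib1, or Rab24 and Prelid1, share a region. The 4 AFX2-only windows lie under 3 of 62 regions. The region at Krit1 had a peak in all 3 AFX2 lists as deposited. The letters CCAAT, typical of NFY, were in 40.5% of FS1-only and 22.5% of AFX2-only windows, against 43.8% of all-6 and 38.1% of all windows. By region these were 28 of 62 FS1-only and 16 of 62 AFX2-only regions. Among the promoters printed here, CCAAT was in the windows of Sycp3, Syce3, Iho1 and Col11a1, at Sycp3 only past the printed run, and CCGGAAGT was in that of Crb3. A match in letters is a description and not a binding site.

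Genes of 13 lists of pluripotency stages, lineages and signalling pathways were the nearest gene at 17 FS1-only regions (2.93%) and 28 AFX2-only regions (3.29%), against 2.45% of union regions. Listed genes were therefore about as frequent as elsewhere, and the regions are described one by one. Among pluripotency genes, an FS1-only region lay within Dnmt3b, a DNA methyltransferase of the formative stage, at chr2:153660660-153660964 with ranks of 63.6, 43.4 and 64.1. Others lay 35.4 kb from Tbx3, a naive factor (chr5:119634862-119635125, mean rank 64.7), and 65.6 kb from Zfp281 (chr1:136696030-136696411, mean rank 24.2). On the AFX2 side, regions lay 432 kb from Sox2 (chr3:35084571-35084833, mean rank 40.4) and 9.94 kb from Sall4 (mean rank 10.2). Pou3f1, a POU factor of the formative epiblast and neural lineage, was near to 1 region of each side, chr4:124576134-124576457 for FS1 (81.2 kb, mean rank 28.3) and chr4:124616755-124617086 for AFX2 (40.6 kb, mean rank 59.4). The 2 regions at Pou3f1 lie apart, so the gene had a side-only region in both lines.

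The neural list had 2 FS1-only regions (0.345% of FS1-only) and 7 AFX2-only regions (0.824% of AFX2-only), against 0.246% of the union. Of the AFX2-only ones, Zic1 had 2, and Irx3 and Nr2f1 had 1 each, with mean ranks of 25.7 to 51.9. The FS1-only regions were near Irx3 (203 kb) and Meis2 (5.17 kb), with mean ranks of 38.6 and 36.7. These counts are small, and regions near the same gene are not independent.

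The activin and Nodal list had 0 FS1-only and 3 AFX2-only regions (0.353% of AFX2-only), against 0.179% of the union, and 3 regions are too few to describe the pathway. One, chr1:180933752-180935038, reached over the start of Lefty1, a secreted inhibitor of Nodal and itself a target of the pathway. Its ranks were 51.7, 55.2 and 40.7 in AFX2 libraries 1 to 3. It is a merged region, and the shortened list of AFX2 library 1 had no peak within 1 kb of either end of Lefty1. Peaks overlapping the region were found in 0 of 6 FS lists, in 2 of 3 EpiSC (AF), 2 of 3 EpiSC (AFX)1 and 3 of 4 EpiLC lists. Within 1 kb of either gene end, 2 EpiSC (AF), 1 EpiSC (AFX)1 and 2 EpiLC lists had a peak. The other two lay 1.45 Mb from Acvr2a, an activin receptor (chr2:47368355-47368664, ranks 78.9, 84.1 and 72.7), and 233 kb from Smad2, a signal transducer (mean rank 23.5). A gene at such distances is only the nearest one.

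The FGF and ERK list had 1 FS1-only region, 99.0 kb from Ets2 (mean rank 20.996), and 4 AFX2-only regions. The shares were 0.172% and 0.471%, against 0.303% of the union. These lay 12.03 kb from Spred1 (chr2:117194305-117194632, mean rank 67.0), 26.2 kb from Spry2 (chr14:105922976-105923279, mean rank 49.4), 12.1 kb from Spry4 (mean rank 20.8) and within Fgfr2 (mean rank 19.5). Spred1, Spry2 and Spry4 are feedback inhibitors of the pathway and Fgfr2 is a receptor. At all 4, every EpiSC (AF) list and no FS2 list had a peak, and 1 FS1 list as deposited had one near Spred1.

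The Wnt list had 3 regions on each side (0.517% of FS1-only and 0.353% of AFX2-only), against 0.365% of the union. FS1-only regions lay 26.5 kb from Axin2, a target and inhibitor of the pathway, (mean rank 48.9), 28.8 kb from the ligand Wnt7b (36.6) and near the start of Dkk3, which encodes a Dickkopf-related secreted protein (chr7:112158317-112159265, 29.6). AFX2-only regions lay within the coreceptor Lrp6 (chr6:134515504-134515773, mean rank 42.1), and near the starts of the transcription factors Tcf7l1 (32.5) and Tcf7 (32.2). At each of the regions near Tcf7l1 and Tcf7, 1 FS1 list as deposited had a peak. Outside that region, all 3 shortened FS1 lists had a peak within 1 kb of either end of Tcf7l1. For Tcf7, 0 of them did. The BMP list had 2 FS1-only regions, both near Tfap2c (18.3 and 68.8 kb), a factor of the germ cell and surface lineages, and 0 AFX2-only regions. That is 0.345% of FS1-only regions, against 0.291% of the union.

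Of the retinoid list, an FS1-only region lay 7.65 kb from Cyp26b1, which breaks down retinoic acid (mean rank 47.8), and an AFX2-only region within the receptor gene Rara (mean rank 34.4). Of the adhesion list, AFX2-only regions were near Cdh11 (360 kb, mean rank 70.4), Cdh2 (1.25 Mb, 61.9) and Grhl3 (44.2 kb, 41.8), and over the start of Snai2, a repressor of epithelial genes. The Snai2 region, chr16:14705239-14705948, ranked 63.1, 57.6 and 27.7, and 3 of 3 FS2, 3 of 3 EpiSC (AFX)1 and 4 of 4 EpiLC lists had a peak there, so it set FS1 apart from FS2 as well. FS1-only regions of that list were near Zeb2 (1.63 Mb), Cldn4 (15.3 kb) and Itgb1 (14.3 kb), with mean ranks of 20.5 to 45.8. The germ cell list had Sycp3 on the FS1 side, and Dazl (14.6 kb, mean rank 33.01) and Kit (93.0 kb, 11.7) on the AFX2 side, so it did not mark a side. The primed list had 1 region, within Cdx2 on the AFX2 side (mean rank 13.95), and the extra-embryonic list had 0 on both sides. These lists held 0.131% and 0.0668% of union regions. FS1-only and AFX2-only shares were 0.172% and 0.118% for the retinoid list, against 0.145% of the union. For the adhesion list they were 0.517% and 0.471%, against 0.243%. For the germ cell list they were 0.172% and 0.235%, against 0.0549%. Such small counts do not describe the lists.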

How the data were processed

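Peak lists of 6 libraries were analysed, and those of the 20 others were read at the resulting regions. Each deposited list is in the broadPeak layout and was called per library. Per the submitters' processing notes, Trim Galore, Bowtie, Picard, MACS2 and the build mm10 were used, versions and settings not given in the sources used here. The authors give each peak a −log10 p and a −log10 q, a fold enrichment (a ratio) and a score. These are a peak's own values, used only to rank peaks within a list. The lowest −log10 q is about 1 in every deposited list. Names of first-set peaks hold a tag that Rd2 names lack, so the sets may have been processed differently. Read depth is unknown.

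Autosomal peaks were ranked by −log10 p, the top 23000 kept, and overlapping or touching peaks merged (Python 3.11.15, pandas 2.3.3). Merging and presence calls were tested on simulated lists of well separated peaks, and the ranking and cut were not. Gene positions and promoter sequences came from RefSeq (GRCm38.p6), with strand for 79.6% of 20661 autosomal protein-coding genes. Of 250 listed symbols, 241 matched.

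Named per side were the 10 strongest regions, the 8 strongest with no peak in the other side's deposited lists, up to 8 genes nearest to 3 or more regions, up to 15 regions nearest to listed genes, and the 8 strongest within 1 kb of a start. Some items that the rule picks are not reported here. Other names were chosen after their values were seen. The members and the gene lists were chosen with earlier results of these data known. Libraries of a side shared at most 0.0522% of peaks with identical coordinates. Alternatives were other list lengths, rankings and overlap rules, and leaving out each library.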

Additional observations from a re-analysis of the deposited data

Results flagged for a closer look

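The share of FS1-only regions with a peak minus the share of AFX2-only regions with a peak was above 0 in every FS2 library and below 0 in every library of 4 other groups. The mean difference of FS2 exceeded that of EpiSC (AF) by 34.5 percentage points, that of EpiSC (AFX)1 by 25.6, that of Rd2 EpiLC by 30.1 and that of Rd2 AFX by 26.0. These differences between groups were not tested. List length differed between these groups, with 11632 to 13929 autosomal peaks in FS2, 15148 to 24062 in EpiSC (AF), 17305 to 26811 in EpiSC (AFX)1, 7339 to 25528 in Rd2 EpiLC and 10481 to 11033 in Rd2 AFX, and its part in them was not tested. The sign for EpiSC (AFX)1 turned when any 1 AFX2 library was left out. The sizes moved with the side that lost a library, where leaving 1 out also asks for 1 library fewer on that side. The FS2 difference itself was 19.1 points. It was 8.94 to 12.1 without an FS1 library and 18.9 to 23.2 without an AFX2 library. That of EpiSC (AF) was −15.4 points. It was −25.2 to −19.1 without an FS1 library and −5.53 to −0.0809 without an AFX2 library.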

How the results depend on the processing

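No paired analysis was possible because the results come from no test. With the top 10000 peaks per list there were 297 FS1-only and 334 AFX2-only regions, 30.3% and 28.7% of them near a gene start. With the top 16000 the shares near a start were 23.4% and 20.1%. With lists as deposited the FS1-only share near a start was 13.4%. Among peaks with a −log10 q from 5 upward there were 153 and 360 regions, with 26.1% and 36.7% near a start, so the order of the sides turned. When peaks had to cover 50% of a region, the shares were 22.8% and 17.7%. Ranking by fold, merging peaks up to 500 bp apart, and leaving out the chromosome 4 stretch (chosen after seeing the data) kept all 4 values close to those reported.

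Leaving out 1 library gave 838 to 1187 FS1-only and 1152 to 1449 AFX2-only regions, with 13.6% to 21.1% and 10.1% to 15.6% near a start. Without FS1 replicate 2 the order of the sides turned in number (1187 and 1171) and near starts (13.6% and 15.6%). The FS2 difference ranged from 8.94 to 23.2 percentage points and that of EpiSC (AF) from −25.2 to −0.0809. The EpiSC (AFX)1 difference ranged from −17.9 to 7.73 percentage points, and was 5.52, 1.32 and 7.73 without AFX2 replicate 1, 2 and 3. With the other lists shortened to 8000 peaks, every FS2 library had a peak at 4.66% of FS1-only and 0.353% of AFX2-only regions, every EpiSC (AF) library at 1.03% and 1.06%, and every EpiSC (AFX)1 library at 0.690% and 0.235%. Leaving out 1 library also asks for 1 library fewer on that side, so the sides are then picked by unlike rules. The cause of these shifts was not tested. Weak peaks near the threshold limit all presence calls, and the absence of a peak does not show closed chromatin.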
